A study of Mus musculus with 12 samples.

Results

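The genes described here encode the proteins that dock, prime and fuse synaptic vesicles, and their relatives in the same families. They were taken by symbol: synaptotagmins (Syt), syntaxins (Stx), syntaxin-binding proteins (Stxbp), VAMPs (Vamp), SNAPs (Snap23, Snap25, Snap29, Snap47 and Snap91), complexins (Cplx), RIMs (Rims), UNC13 proteins (Unc13), synapsins (Syn) and SV2 proteins (Sv2). Of the 32531 gene rows of the count tables, 68 matched, and 64 of these had enough counts to be tested. Cplx4 and Stx19 were under the filter on low counts, and Syt8 and Vamp7 had 0 counts in every library.

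The study used translating ribosome affinity purification followed by sequencing (TRAP-seq) in adult transgenic mice of the line Slc17a6-EGFP/Rpl10a (JX883). In these mice a ribosomal protein fused to EGFP is made under the control of Slc17a6, the gene of the vesicular glutamate transporter VGLUT2, and antibodies against EGFP pull down the tagged polysomes with their RNA. The 4 groups were the immunopurified RNA (IP) and the RNA of the whole tissue (input) from hypothalamus and from midbrain, all from the same line and with no treatment named, with 3 libraries in each. Nothing in the labels says whether a library came from 1 animal or from a pool, so p-values measure the spread between these libraries. The IP reports on whichever cells made the transgene, and IPs from mice without the tag were not analysed here.

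Vesicle fusion runs on the SNARE proteins. A vesicle SNARE (VAMP2 or VAMP1) zips up with the plasma membrane SNAREs syntaxin-1 and SNAP25, and the UNC13 proteins and the RIMs prepare that step at the active zone. Complexins clamp and then assist the nearly assembled complex, and synaptotagmins trigger fusion when calcium enters. Other syntaxins, VAMPs and SNAPs serve the same chemistry in the Golgi, in endosomes and at the surface of non-neuronal cells.

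Each library held between 41909019 and 55148109 counts over genes. Values are CPM, counts scaled to the size of the library, on the TMM scale, given for replicates 1, 2 and 3 in that order, and a count of 3 in a library came to between 0.0537 and 0.071 CPM. Slc17a6 itself was higher in the IPs by a log2 fold change of 2.602 ± 0.49, adjusted p = 0.00184 in the hypothalamus and 1.82 ± 0.48, adjusted p = 0.0116 in the midbrain (± SE; edgeR quasi-likelihood test, Benjamini-Hochberg adjusted over 18128 genes, as for every adjusted p here). Of 36 markers of glial, vascular and ependymal cells, 35 were lower in the hypothalamus IPs than in the inputs and 34 in the midbrain. Their summed level ran from 386 to 506 CPM in the hypothalamus IPs, from 3254 to 4380 CPM in those inputs, from 621 to 714 CPM in the midbrain IPs and from 6016 to 6449 CPM in those inputs. C1qa, Cldn5 and Slco1a4, markers of microglia and of endothelium, had 0 counts in all 3 hypothalamus IPs. Of 6 markers of GABAergic neurons, 5 were lower in the IPs of each region. Of 6 markers of neurons in general, 5 were higher in the hypothalamus IPs and 3 in the midbrain IPs, and none was lower. Their median log2 fold change was 0.73 in the hypothalamus and 0.57 in the midbrain. Of all genes tested, 14.2% were higher in the hypothalamus IPs and 14.0% in the midbrain IPs. All IPs carried 1 index and all inputs another, so fraction and index cannot be told apart, and in bulk RNA a lower value from fewer cells of a type and one from less RNA per cell cannot be told apart either.

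Promoter sequence is shown for 6 members that stand for the 3 patterns described below. Stx1a and Syn1 were higher in the IPs of both regions, Stx2 and Snap23 were lower in both, and Cplx1 and Vamp1 differed between the regions. The sequences are the bases just before the start of the gene in RefSeq (build GRCm38.p6), 5′ to 3′ on the gene's strand, without bases that GENCODE already places inside the gene. Capitals mark the GC box GGGCGG or its reverse complement CCGCCC, and TGACG or its reverse complement CGTCA, the core of the cyclic AMP response element.
Stx1a: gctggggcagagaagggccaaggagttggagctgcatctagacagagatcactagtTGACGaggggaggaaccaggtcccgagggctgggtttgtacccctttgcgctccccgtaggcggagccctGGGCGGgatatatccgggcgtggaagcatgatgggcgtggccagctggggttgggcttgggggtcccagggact
Syn1: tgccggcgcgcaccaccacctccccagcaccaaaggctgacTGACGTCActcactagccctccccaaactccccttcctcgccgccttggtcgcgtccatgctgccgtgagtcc
Stx2: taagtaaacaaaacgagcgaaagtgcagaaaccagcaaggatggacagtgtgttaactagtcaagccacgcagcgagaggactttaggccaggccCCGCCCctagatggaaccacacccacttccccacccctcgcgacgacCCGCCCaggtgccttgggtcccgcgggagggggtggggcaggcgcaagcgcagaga
Snap23: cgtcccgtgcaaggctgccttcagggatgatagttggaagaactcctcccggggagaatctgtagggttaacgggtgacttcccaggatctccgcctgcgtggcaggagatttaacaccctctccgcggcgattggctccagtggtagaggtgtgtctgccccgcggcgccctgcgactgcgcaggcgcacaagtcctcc
Cplx1: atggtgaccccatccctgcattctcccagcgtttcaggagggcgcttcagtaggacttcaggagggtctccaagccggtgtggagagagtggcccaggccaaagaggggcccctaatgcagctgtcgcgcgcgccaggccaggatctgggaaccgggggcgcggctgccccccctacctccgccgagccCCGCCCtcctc
Vamp1: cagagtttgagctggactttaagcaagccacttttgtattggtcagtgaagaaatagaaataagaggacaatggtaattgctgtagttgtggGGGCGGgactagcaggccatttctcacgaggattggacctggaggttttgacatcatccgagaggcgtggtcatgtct
They lie at chr5:135023282-135023481 (plus strand), chrX:20921005-20921118 (minus), chr5:129008575-129008772 (minus), chr2:120567471-120567670 (plus), chr5:108550028-108550227 (minus) and chr6:125215381-125215550 (plus). The windows shown differ in length, with 200 bases for Stx1a, Snap23 and Cplx1, 198 for Stx2, 170 for Vamp1 and 114 for Syn1. Motif counts cover only those bases. The Stx1a window holds 1 GC box and 1 TGACG, while the Syn1 window holds no GC box and a pair of overlapping TGACG matches on opposite strands. The Stx2 window has 2 GC boxes, the Cplx1 and Vamp1 windows have 1 each, and Snap23 has none of these motifs.

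Over all members, 51 of 68 had a RefSeq window, 66 windows of 200 bases in all. A GC box on either strand stood in 37 of the 66 (56.1%) and in 10200 of 32851 windows of all genes (31.0%). TGACG on either strand stood in 8 member windows (12.1%, against 15.7% of all). The TATA motif TATAAA, searched on both strands, was in 3 (4.55%, against 9.96%), and CCAAT on both strands in 17 (25.8%, against 29.3%). The member windows were also richer in CG dinucleotides, with a median of 13 against 5 over all windows. The windows of all genes were not limited to genes tested here, so these contrasts are not shown to be particular to the members. These are letter matches in a fixed window, not binding sites. Of the 6 windows shown, TGACG stands in those of Stx1a and Syn1 and not in the other 4, which describes 6 chosen genes and was not tested.

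Between IP and input the fusion genes passed in both directions, and several families held members of each kind. In the hypothalamus 14 of the 64 tested members were higher in the IPs and 8 were lower, where 14.2% of all genes tested were higher and 19.6% lower. In the midbrain 15 were higher and 9 lower, where the shares of all genes were 14.0% and 19.9%. The median log2 fold change of the 64 was 0.14 in the hypothalamus and 0.15 in the midbrain, and over all genes it was -0.08 and -0.05. Of the members called higher, 9 were shared, which is 9 of 14 and 9 of 15; of those called lower, 4 were shared, 4 of 8 and 4 of 9. All 3 IPs lay above all 3 inputs for 17 members in the hypothalamus and 17 in the midbrain, where 19.7% and 21.1% of all genes did, and below them for 15 and 14, where 27.3% and 27.8% did. No member was called in opposite directions, and 31 passed in neither region. The sharing of calls between regions was not counted over all genes, so it is not shown to be particular to the members.

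Samples of the same number deviated together, and with the replicate number as a block more members passed: 20 higher and 15 lower in the hypothalamus, where 19.5% and 23.8% of all genes passed, and 25 higher and 14 lower in the midbrain, where 20.3% and 23.6% passed. Every call of the unblocked fit stood in the blocked one for these IP against input comparisons. Of the 46 calls, 29 also stood when any single library was left out, and the libraries behind the others are named beside each gene. Log2 fold changes rest on TMM scaling, and scaling by library size alone lowered the median of all genes from -0.08 to -0.25 in the hypothalamus and from -0.05 to -0.13 in the midbrain. Under that scaling the calls split into 11 higher and 13 lower in the hypothalamus, where 1632 of all 18128 genes were higher and 4011 lower, and into 10 and 9 in the midbrain, where 1960 were higher and 3754 lower.

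**Figure D1:**
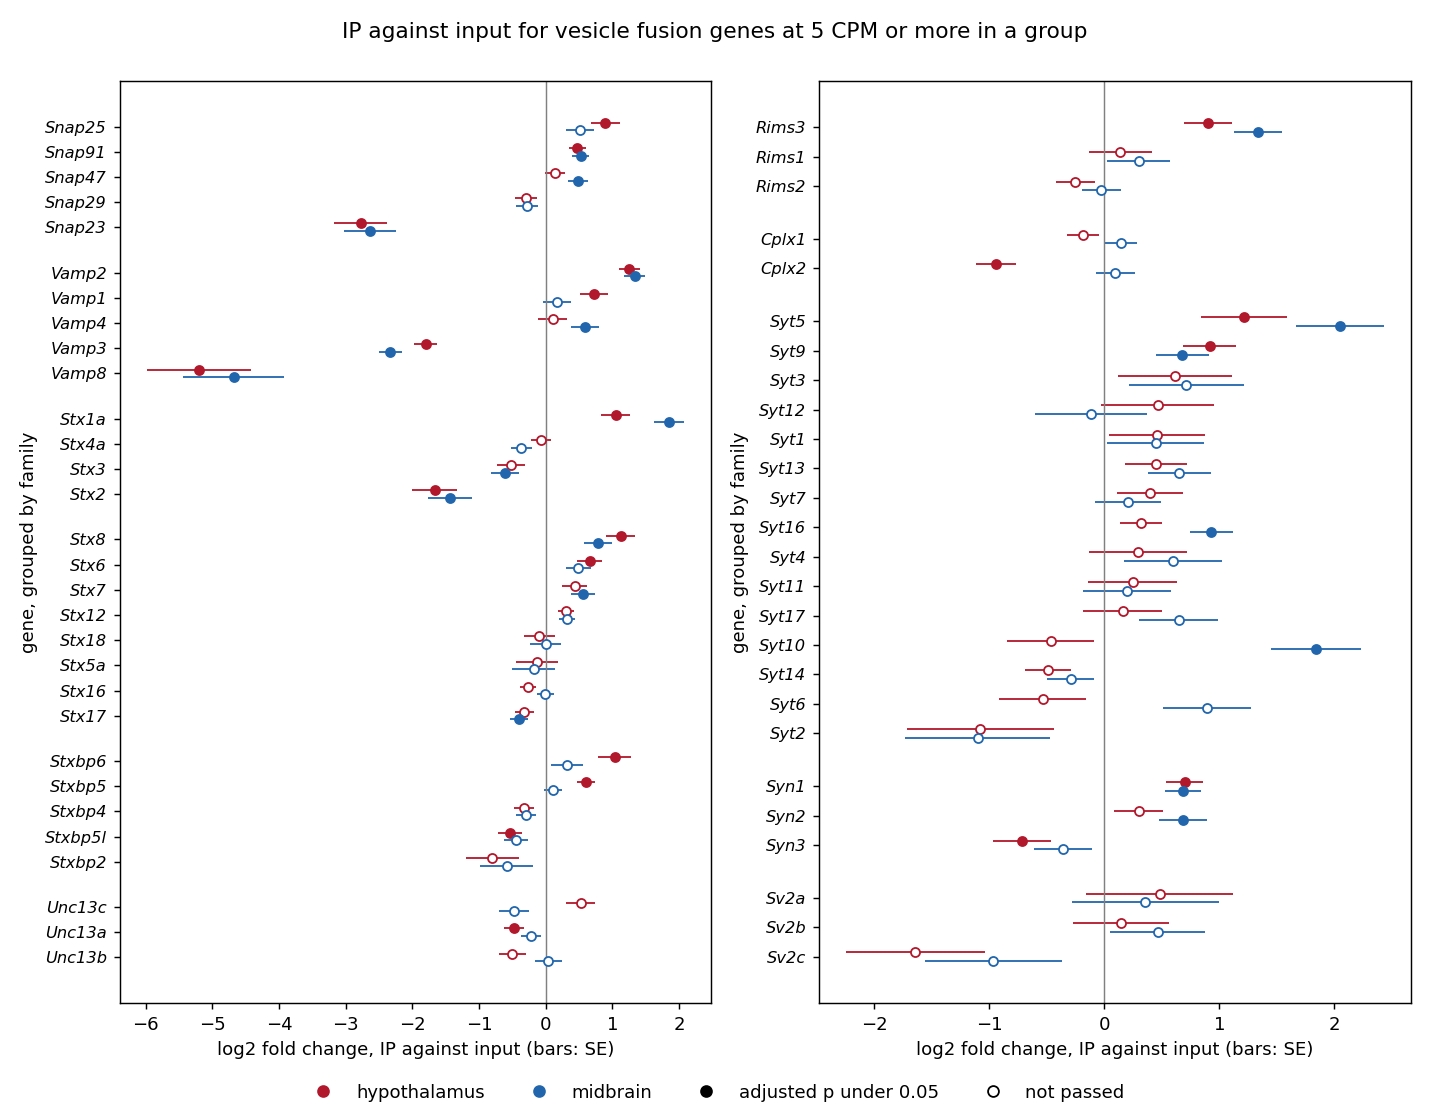
Log2 fold change of IP against input (x axis; bars, SE) for 56 members with a mean of at least 5 CPM in some group, by family (y axis), with hypothalamus in red, midbrain in blue and filled circles for an adjusted p under 0.05. Vamp8, Snap23, Vamp3 and Stx2 lie far to the left in both regions, and Vamp2, Stx1a, Rims3 and Syt5 lie to the right.

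Vamp2 and Stx1a, SNAREs of the synapse, were higher in the IPs of both regions and Snap25 in those of the hypothalamus, while Snap23, Vamp3, Vamp8 and Stx2, relatives found in many cell types, were lower in both. Snap25, the plasma membrane SNAP of synapses (chr2:136713453-136782428, plus strand), stood at 10828, 16425 and 17233 CPM in the hypothalamus IPs and 6048, 8276 and 9559.9 CPM in the inputs. Midbrain Snap25 was at 15222, 21278 and 22591 CPM in the IPs and 12228, 14642 and 14397 CPM in the inputs. All IPs of a region lay above all of its inputs. Snap25 was higher by 0.90 ± 0.21, adjusted p = 0.00652 in the hypothalamus, while the midbrain value of 0.52 ± 0.21, adjusted p = 0.0758 passed only with the replicate number as a block (0.50, adjusted p = 6.59e-04).

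Vamp2, the vesicle SNARE of most forebrain synapses (chr11:69088490-69092384, plus strand), was measured at 3704, 3294 and 3524 CPM in the hypothalamus IPs and 1232, 1415 and 1769.95 CPM in the inputs. Midbrain Vamp2 was at 3646, 3023 and 3742 CPM in the IPs and 1133, 1494 and 1494 CPM in the inputs. All IPs lay above all inputs in each region. Vamp2 was higher by 1.25 ± 0.16, adjusted p = 1.26e-04 and 1.34 ± 0.16, adjusted p = 8.68e-05, nearly the same in both regions. Stx1a, or syntaxin-1A, a plasma membrane SNARE of synapses (chr5:135023482-135051100, plus strand), was at 32.9, 42.01 and 51.1 CPM in the hypothalamus IPs and 20.8, 18.2 and 21.8 CPM in the inputs. Midbrain Stx1a was at 38.7, 37.4 and 53.96 CPM in the IPs and 11.1, 10.04 and 14.9 CPM in the inputs. IP levels were alike in the 2 regions, and the midbrain inputs were the lowest. Its log2 fold change was 1.05 ± 0.22, adjusted p = 0.00332 in the hypothalamus and 1.85 ± 0.23, adjusted p = 1.11e-04 in the midbrain.

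Vamp1, the second vesicle SNARE of synapses, was at 481, 415 and 283 CPM in the hypothalamus IPs and 226, 229 and 258 CPM in the inputs. Midbrain Vamp1 was at 1092, 828 and 625 CPM in the IPs and 801, 815 and 648 CPM in the inputs. The hypothalamus IPs lay above their inputs and the midbrain groups overlapped. Vamp1 was higher in the hypothalamus by 0.72 ± 0.22, adjusted p = 0.0216, a call lost without hypothalamus IP 1, input 1, IP 2 or input 2 (adjusted p 0.0612 to 0.072), and its midbrain value was 0.17 ± 0.21, adjusted p = 0.585.

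**Figure D2:**
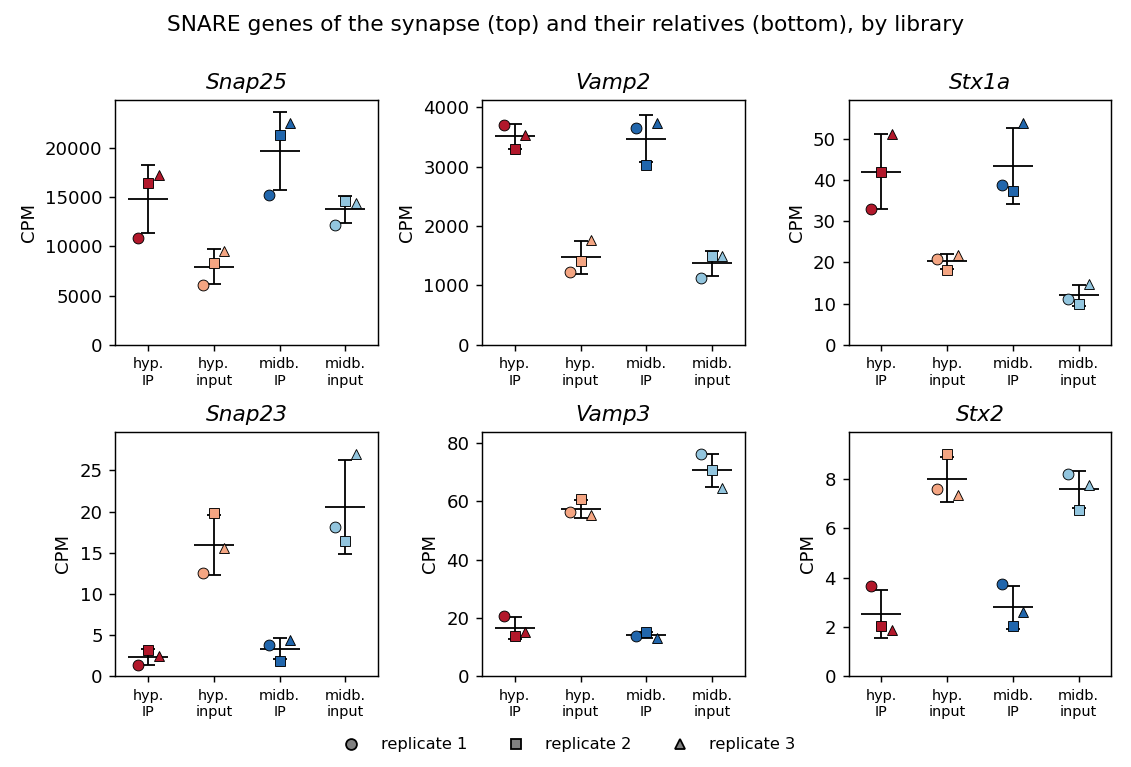
CPM (y axis, from 0) in each library of the 4 groups for 3 SNARE genes of the synapse (top) and for a relative of each (bottom); symbols mark the replicate, bars the mean and SD of 3. Top row IPs lie above the inputs of their region and bottom row IPs lie below them, with no overlap in any panel.

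Snap23, the relative of SNAP25 found in most cell types (chr2:120567671-120601255, plus strand), stood at 1.33, 3.16 and 2.49 CPM in the hypothalamus IPs and 12.5, 19.8 and 15.5 CPM in the inputs. Midbrain Snap23 was at 3.74, 1.86 and 4.34 CPM in the IPs and 18.1, 16.4 and 27.03 CPM in the inputs. All IPs lay far below all inputs of their region. Its log2 fold changes were -2.78 ± 0.40, adjusted p = 3.03e-04 and -2.63 ± 0.39, adjusted p = 4.28e-04. Vamp3, or cellubrevin, the VAMP of recycling endosomes in most cells (chr4:151047300-151057963, minus strand), was at 20.7, 13.7 and 15.1 CPM in the hypothalamus IPs and 56.3, 60.9 and 55.1 CPM in the inputs. Midbrain Vamp3 was at 13.7, 15.2 and 13.2 CPM in the IPs and 76.3, 70.7 and 64.7 CPM in the inputs. The groups were far apart, with log2 fold changes of -1.80 ± 0.17, adjusted p = 2.16e-05 and -2.33 ± 0.18, adjusted p = 4.07e-06.

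Vamp8, or endobrevin, a VAMP of secretory and endosomal fusion outside neurons, was the lowest of these in the IPs. It stood at 0.101, 0.275 and 0.0187 CPM in the hypothalamus IPs and 3.28, 7.32 and 4.29 CPM in the inputs. Midbrain Vamp8 was at 0.191, 0.134 and 0.444 CPM in the IPs and 3.67, 7.38 and 8.82 CPM in the inputs. Several IP values lie near or under the floor of 3 counts, and the gene was tested only through the inputs. The log2 fold changes of -5.20 ± 0.78, adjusted p = 4.36e-04 and -4.68 ± 0.75, adjusted p = 6.83e-04 rest on few reads. Stx2, a syntaxin of the surface of epithelial and other non-neuronal cells, was at 3.67, 2.06 and 1.85 CPM in the hypothalamus IPs and 7.62, 9.04 and 7.35 CPM in the inputs. Midbrain Stx2 was at 3.76, 2.05 and 2.603 CPM in the IPs and 8.22, 6.76 and 7.78 CPM in the inputs. Its IPs were below the inputs without overlap (-1.66 ± 0.34, adjusted p = 0.00276 and -1.43 ± 0.33, adjusted p = 0.00621). The glial, vascular and ependymal marker list fell in the same comparisons with the counts and summed levels given above, and its part in these 4 results was not tested.

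Other plasma membrane syntaxins showed smaller differences. Stx3, which serves ribbon synapses and dendrites, was at 32.6, 30.3 and 46.4 CPM in the hypothalamus IPs and 45.9, 58.5 and 51.6 CPM in the inputs. Midbrain Stx3 was at 23.6, 31.7 and 38.6 CPM in the IPs and 44.4, 49.2 and 49.7 CPM in the inputs. The midbrain IPs lay below the inputs (-0.61 ± 0.21, adjusted p = 0.0402), a call that stood only when the library left out was midbrain IP 3 (adjusted p 0.0623 to 0.138 without any other). The hypothalamus value was -0.51 ± 0.21, adjusted p = 0.0778 and passed with the block (-0.53, adjusted p = 0.0177). Stx4a, the syntaxin of exocytosis outside the active zone, had -0.07 ± 0.15, adjusted p = 0.759 and -0.36 ± 0.15, adjusted p = 0.0883, the latter passing with the block (-0.36, adjusted p = 0.0225). Stx11, a syntaxin of immune cells, reached at most 0.547 CPM in any library.

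Among the SNAREs of endosomes, Golgi and endoplasmic reticulum, 2 of 8 syntaxins were higher in the hypothalamus IPs and none lower, and 2 were higher and 1 lower in the midbrain, against the shares of all genes given above (14.2% and 19.6%, and 14.0% and 19.9%). Stx8, a syntaxin of late endosomes, was at 33.6, 47.2 and 52.3 CPM in the hypothalamus IPs and 18.7, 22.5 and 19.8 CPM in the inputs. Midbrain Stx8 was at 33.96, 48.5 and 52.99 CPM in the IPs and 22.1, 28.4 and 28.1 CPM in the inputs. All IPs lay above the inputs, by 1.12 ± 0.21, adjusted p = 0.00193 and 0.79 ± 0.21, adjusted p = 0.0134, the midbrain call being lost without midbrain input 1 (adjusted p = 0.0564) or IP 3 (adjusted p = 0.0544). Stx6, of the trans-Golgi network, was higher in the hypothalamus by 0.66 ± 0.18, adjusted p = 0.0158, which fell short without hypothalamus input 2 (adjusted p = 0.0508), and its midbrain value of 0.49 ± 0.18, adjusted p = 0.0577 passed with the block (0.48, adjusted p = 0.0348). Stx7, which pairs with Stx8 in late endosomes, was higher in the midbrain by 0.56 ± 0.18, adjusted p = 0.0328, a call lost without midbrain IP 1, input 1, IP 2 or input 3 (adjusted p 0.0588 to 0.127), and reached 0.43 ± 0.18, adjusted p = 0.0858 in the hypothalamus, passing with the block (0.44, adjusted p = 0.00568).

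Stx17, the syntaxin of autophagosomes, went the other way. It stood at 55.03, 42.9 and 45.97 CPM in the hypothalamus IPs and 57.9, 59.2 and 62.2 CPM in the inputs. Midbrain Stx17 was at 50.6, 45.4 and 52.99 CPM in the IPs and 71.1, 63.1 and 62.96 CPM in the inputs. IPs lay below inputs without overlap in both regions, yet the size was small: -0.40 ± 0.14, adjusted p = 0.039 in the midbrain, where leaving out any 1 of the 6 libraries raised the adjusted p to between 0.0564 and 0.128, and -0.32 ± 0.14, adjusted p = 0.0962 in the hypothalamus, passing with the block (-0.32, adjusted p = 0.0459). Stx12, of recycling endosomes, had 0.30 ± 0.12 and 0.31 ± 0.12 and passed with the block in both regions (0.30, adjusted p = 0.022; 0.32, adjusted p = 0.015). Stx5a and Stx16 of the Golgi and Stx18 of the endoplasmic reticulum passed in neither region under either fit. Of the exon bases of Stx18, 32.3% are shared with neighbours, Nsg1 among them.

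Vamp4, a VAMP of the trans-Golgi network and of bulk endosomes in nerve terminals, was at 137, 215 and 198 CPM in the hypothalamus IPs and 157, 188 and 166 CPM in the inputs. Midbrain Vamp4 was at 136, 241 and 155 CPM in the IPs and 114, 123 and 117 CPM in the inputs. Only the midbrain groups were apart, at 0.59 ± 0.21, adjusted p = 0.0496; the call was lost without any 1 library other than midbrain IP 1 (adjusted p 0.0523 to 0.24), and without midbrain IP 2 the log2 fold change dropped to 0.31. Vamp5, a VAMP known from muscle, was lower in the midbrain (-4.77 ± 1.38, adjusted p = 0.0187), a call lost without midbrain IP 2 (adjusted p = 0.0606) or input 3 (adjusted p = 0.0663). Midbrain Vamp5 was at 0.128, 0.0192 and 0.106 CPM in the IPs and 1.19, 1.66 and 4.16 CPM in the inputs, so that the IPs lay near or under the floor of 3 counts and the gene was tested only through the inputs. Hypothalamus Vamp5 was at 0, 0 and 0.4496 CPM in the IPs and 0.926, 1.54 and 1.53 CPM in the inputs. It had -3.13 ± 1.27, adjusted p = 0.0767 and passed with the block (-4.12, adjusted p = 0.0149).

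The remaining SNAP symbols differ in what they do. Snap91, or AP180, is a clathrin adaptor of vesicle recovery and shares only the symbol with the SNAREs. Its level was 423 ± 41.9 CPM in the hypothalamus IPs against 304 ± 13.00 in the inputs and 473 ± 54.1 against 329 ± 20.7 in the midbrain. Snap91 was higher by 0.48 ± 0.12, adjusted p = 0.01 and 0.52 ± 0.12, adjusted p = 0.00622. Snap47, a SNAP without a membrane anchor of its own, was higher in the midbrain (0.48 ± 0.15, adjusted p = 0.0271), a call lost without midbrain IP 2, input 2, IP 3 or input 3 (adjusted p 0.0668 to 0.0852), and had 0.14 ± 0.15, adjusted p = 0.5 in the hypothalamus. Of its exon bases, 11.6% are shared with Jmjd4. Snap29, which acts with Stx17 in autophagy, had -0.30 ± 0.16, adjusted p = 0.176 and -0.28 ± 0.16, adjusted p = 0.205.

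Among the genes named for binding syntaxin, the tomosyns and amisyn are described here. Stxbp5, or tomosyn, which competes with VAMP2 for syntaxin-1 and SNAP25, was at 359, 387 and 329 CPM in the hypothalamus IPs and 242, 254 and 212 CPM in the inputs. Midbrain Stxbp5 was at 194, 238 and 179 CPM in the IPs and 198, 198 and 169 CPM in the inputs. The hypothalamus IPs were the highest of the 4 groups, 0.60 ± 0.14 above the inputs (adjusted p = 0.00557), and the midbrain value was 0.11 ± 0.14, adjusted p = 0.563.

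Stxbp5l, the second tomosyn, was lower in the hypothalamus IPs. It stood at 101, 134 and 158 CPM in the hypothalamus IPs and 200.03, 178 and 188 CPM in the inputs. Midbrain Stxbp5l was at 121, 169 and 136 CPM in the IPs and 225, 176 and 179 CPM in the inputs. IPs lay below inputs in both regions. The hypothalamus value of -0.53 ± 0.18, adjusted p = 0.0396 was lost without any 1 library other than hypothalamus IP 3 (adjusted p 0.0685 to 0.118), and the midbrain value of -0.44 ± 0.18, adjusted p = 0.0764 passed with the block (-0.45, adjusted p = 0.0458). Stxbp6, or amisyn, another brake on SNARE assembly, was at 149, 186 and 257 CPM in the hypothalamus IPs and 73.3, 91.9 and 123 CPM in the inputs. Midbrain Stxbp6 was at 181, 199.7 and 285 CPM in the IPs and 153, 182 and 198 CPM in the inputs. It was higher in the hypothalamus IPs (1.03 ± 0.25, adjusted p = 0.00686), and the midbrain value of 0.32 ± 0.24, adjusted p = 0.343 passed with the block (0.29, adjusted p = 0.0399). Stxbp2, the Munc18 form of secretory cells outside the nervous system, and Stxbp4 passed in neither region under either fit.

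Among the priming and scaffold genes Rims3 passed as higher in both regions and Unc13a as lower in the hypothalamus. Unc13a, or Munc13-1, the main priming factor of glutamatergic synapses, was at 49.1, 52.3 and 59.7 CPM in the hypothalamus IPs and 75.3, 65.1 and 83.6 CPM in the inputs. Midbrain Unc13a was at 65.3, 54.2 and 64.5 CPM in the IPs and 70.3, 65.5 and 78.8 CPM in the inputs. The IPs lay below the inputs in both regions, with -0.48 ± 0.15, adjusted p = 0.0266 in the hypothalamus, a call lost without hypothalamus IP 1, input 1, IP 2 or input 3 (adjusted p 0.0666 to 0.134), and -0.22 ± 0.15, adjusted p = 0.276 in the midbrain. Unc13b, or Munc13-2, had -0.50 ± 0.20, adjusted p = 0.077 and 0.04 ± 0.20, adjusted p = 0.903. Unc13c, or Munc13-3, pointed up in all 3 hypothalamus pairs and down in all 3 midbrain pairs, 0.53 ± 0.22 and -0.48 ± 0.22; both passed with the block (0.51, adjusted p = 0.0137; -0.48, adjusted p = 0.0193), but the difference between the regions did not pass (1.00 ± 0.31, adjusted p = 0.43). Unc13d, the form of blood cells, reached at most 1.16 CPM in any library.

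Rims1, the long RIM that ties vesicles and calcium channels to the active zone, was at 58.9, 68.5 and 118 CPM in the hypothalamus IPs and 62.5, 69.9 and 90.1 CPM in the inputs. Midbrain Rims1 was at 74.5, 109.5 and 136 CPM in the IPs and 74.4, 86.3 and 99.4 CPM in the inputs. The groups overlapped in both regions (0.14 ± 0.27, adjusted p = 0.737 and 0.30 ± 0.27, adjusted p = 0.438). Rims2, the other long form, had -0.25 ± 0.17, adjusted p = 0.278 and -0.03 ± 0.17, adjusted p = 0.913. Rims3, a short form that keeps only the last C2 domain, was at 38.8, 27.4 and 32.2 CPM in the hypothalamus IPs and 18.7, 16.7 and 17.2 CPM in the inputs. Midbrain Rims3 was at 55.04, 31.3 and 42.6 CPM in the IPs and 17.4, 16.1 and 17.4 CPM in the inputs. Its IPs lay above the inputs throughout, by 0.90 ± 0.21, adjusted p = 0.00563 and 1.34 ± 0.21, adjusted p = 5.67e-04. Rims4, another short form, held between 0.596 and 2.61 CPM and had 1.11 ± 0.52, adjusted p = 0.123 and 0.97 ± 0.52, adjusted p = 0.178.

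Of the 3 complexins tested, none passed as higher in the IPs of either region, where 14.2% and 14.0% of all genes did. Cplx1, a main complexin of the brain (chr5:108518554-108550024, minus strand), was at 285, 266 and 313 CPM in the hypothalamus IPs and 304, 285 and 392 CPM in the inputs. Midbrain Cplx1 was at 978, 807 and 948 CPM in the IPs and 751, 875 and 855 CPM in the inputs. The IPs and inputs of each region overlapped (-0.18 ± 0.14, adjusted p = 0.343 and 0.14 ± 0.14, adjusted p = 0.484), while the regions lay far apart. Cplx2 was at 221, 216 and 157 CPM in the hypothalamus IPs and 393, 328 and 422 CPM in the inputs. Midbrain Cplx2 was at 651, 579.7 and 443 CPM in the IPs and 486, 556 and 524 CPM in the inputs. Its hypothalamus IPs were below the inputs (-0.94 ± 0.17, adjusted p = 0.00154), and its midbrain value was 0.10 ± 0.17, adjusted p = 0.706. Cplx3, a complexin of retinal ribbon synapses, was lower in the midbrain IPs (-3.20 ± 0.98, adjusted p = 0.0249), at means of 0.171 ± 0.0556 CPM in the IPs and 1.59 ± 0.779 CPM in the inputs, and the call was lost without midbrain IP 1, IP 2, input 2 or IP 3 (adjusted p 0.0506 to 0.0816). Its midbrain IPs held 0.234, 0.154 and 0.127 CPM, and the fitted fold rests on few reads. The gene passed the filter on low counts through its inputs.

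The calcium sensors that trigger fast release are Syt1, Syt2 and Syt9, of which Syt9 passed as higher in both regions. Syt1, the main sensor of forebrain synapses, was at 1185, 413 and 541 CPM in the hypothalamus IPs and 840.2, 292 and 426 CPM in the inputs. Midbrain Syt1 was at 1088, 627 and 869.95 CPM in the IPs and 795, 486 and 617 CPM in the inputs. Libraries numbered 1 were the highest of every group, and IPs and inputs overlapped. The values of 0.46 ± 0.42, adjusted p = 0.437 and 0.45 ± 0.42, adjusted p = 0.451 passed only with the block (0.45, adjusted p = 0.0363; 0.44, adjusted p = 0.0408). Syt2, the sensor of many fast hindbrain synapses, was at 13.8, 4.13 and 6.16 CPM in the hypothalamus IPs and 32.8, 8.27 and 9.77 CPM in the inputs. Midbrain Syt2 was at 57.5, 46.8 and 16.7 CPM in the IPs and 138, 76.02 and 45.7 CPM in the inputs. Its values of -1.08 ± 0.64, adjusted p = 0.216 and -1.10 ± 0.63, adjusted p = 0.199 pointed down and passed with the block (-0.97, adjusted p = 0.0245; -1.07, adjusted p = 0.0128). Syt9 was at 101, 89.7 and 86.7 CPM in the hypothalamus IPs and 52.1, 46.4 and 48.4 CPM in the inputs. Midbrain Syt9 was at 105, 65.2 and 121 CPM in the IPs and 56.4, 46.5 and 79.5 CPM in the inputs. The hypothalamus groups were apart and the midbrain groups overlapped. Syt9 was higher by 0.91 ± 0.23, adjusted p = 0.00958 and 0.67 ± 0.23, adjusted p = 0.0393, the midbrain call being lost without midbrain IP 1, input 1, input 2 or IP 3 (adjusted p 0.0988 to 0.155), and the hypothalamus call without the 4 libraries numbered 1 (adjusted p = 0.0594).

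Among the other synaptotagmins Syt5, a calcium-binding form of dense-core vesicles, had the largest log2 fold change of those that passed as higher in either region. It stood at 302, 149.6 and 121 CPM in the hypothalamus IPs and 119, 60.5 and 67.6 CPM in the inputs. Midbrain Syt5 was at 201, 96.2 and 127 CPM in the IPs and 39.04, 27.4 and 36.4 CPM in the inputs. Every IP lay above every input of its region, although replicate 1 was the highest of each group. Syt5 was higher by 1.21 ± 0.37, adjusted p = 0.025 and 2.04 ± 0.38, adjusted p = 0.00175. The hypothalamus call was lost without hypothalamus IP 1 (0.72, adjusted p = 0.111), input 2 (adjusted p = 0.0967) or input 3 (adjusted p = 0.0683). Syt10, a calcium-binding form, was at 9.35, 5.93 and 12.01 CPM in the hypothalamus IPs and 17.7, 10.2 and 9.79 CPM in the inputs. Midbrain Syt10 was at 8.905, 12.98 and 15.9 CPM in the IPs and 5.23, 3.01 and 2.32 CPM in the inputs. Only the midbrain IPs stood clear of their inputs (1.84 ± 0.39, adjusted p = 0.00382), and the hypothalamus value was -0.47 ± 0.38, adjusted p = 0.373.

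Syt16, a form that does not bind calcium, was at 55.1, 73.1 and 64.6 CPM in the hypothalamus IPs and 46.5, 59.5 and 48.97 CPM in the inputs. Midbrain Syt16 was at 59.9, 86.9 and 60.9 CPM in the IPs and 33.7, 40.5 and 34.7 CPM in the inputs. It was higher in the midbrain (0.93 ± 0.18, adjusted p = 0.00251), and its hypothalamus value of 0.32 ± 0.18, adjusted p = 0.207 passed with the block (0.32, adjusted p = 0.0438). Syt7, the slow sensor of asynchronous release, had 0.40 ± 0.29, adjusted p = 0.313 and 0.21 ± 0.29, adjusted p = 0.618. Syt6 pointed down in all 3 hypothalamus pairs and up in all 3 midbrain pairs, at -0.54 ± 0.38 and 0.89 ± 0.38; both passed with the block (-0.59, adjusted p = 0.0318; 0.77, adjusted p = 0.00838), and the difference between the regions did not pass (-1.43 ± 0.54, adjusted p = 0.605). Syt15 was lower in the midbrain (-3.76 ± 1.21, adjusted p = 0.0302) from a mean of 2.62 ± 1.49 CPM in the inputs to 0.1897 ± 0.222 CPM in the IPs, a call lost without midbrain IP 1, input 2, IP 3 or input 3 (adjusted p 0.0671 to 0.0898), and it rests on few reads, since midbrain IP 3 was under the floor of 3 counts. With the block Syt13 was higher in both regions, Syt3 and Syt4 in the midbrain, and Syt14 was lower in the hypothalamus, while Syt11, Syt12 and Syt17 passed in neither region under either fit.

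Of the 3 synapsins, which tether vesicles in reserve, 1 was higher and 1 lower in the hypothalamus IPs. In the midbrain IPs 2 were higher and none was lower. Of all genes tested, 14.2% were higher and 19.6% lower in the hypothalamus, and 14.0% and 19.9% in the midbrain. With 3 genes, these counts are not shown to differ from those shares. Syn1 (chrX:20860511-20921004, minus strand) was at 936, 877 and 843 CPM in the hypothalamus IPs and 450.3, 576 and 609 CPM in the inputs. Midbrain Syn1 was at 899.6, 798 and 928 CPM in the IPs and 419, 622 and 595 CPM in the inputs. Its IPs lay above the inputs by 0.70 ± 0.16, adjusted p = 0.00557 and 0.68 ± 0.16, adjusted p = 0.00638. Syn2 was at 267, 363 and 548 CPM in the hypothalamus IPs and 331, 291 and 336 CPM in the inputs. Midbrain Syn2 was at 327, 377 and 441 CPM in the IPs and 233, 242 and 238 CPM in the inputs. The midbrain groups were apart (0.68 ± 0.21, adjusted p = 0.0259), a call that stood only when the library left out was midbrain IP 1 (adjusted p 0.0541 to 0.0901 without any other), and the hypothalamus groups overlapped (0.30 ± 0.21, adjusted p = 0.305). Syn3 was at 76.6, 94.2 and 48.4 CPM in the hypothalamus IPs and 122, 116 and 122 CPM in the inputs. Midbrain Syn3 was at 120.4, 127 and 69.9 CPM in the IPs and 144, 151 and 113 CPM in the inputs. It was lower in the hypothalamus IPs, with -0.71 ± 0.25, adjusted p = 0.0457, a call lost without any 1 library other than hypothalamus IP 2 (adjusted p 0.0685 to 0.149), and had -0.36 ± 0.25, adjusted p = 0.295 in the midbrain. Timp3, a gene of the extracellular matrix, lies within Syn3 and shares 14.1% of its exon bases.

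SV2 proteins are vesicle glycoproteins, SV2A being the binding site of the antiepileptic drug levetiracetam. Sv2a was at 444, 98.5 and 119 CPM in the hypothalamus IPs and 299, 81.2 and 93.8 CPM in the inputs. Midbrain Sv2a was at 404, 169 and 166 CPM in the IPs and 297, 152 and 128 CPM in the inputs. Replicate 1 exceeded the others in every group, while each IP was above the input of its own number. The log2 fold changes of 0.48 ± 0.64, adjusted p = 0.603 and 0.36 ± 0.64, adjusted p = 0.706 did not pass, nor did they with the number as a block (0.41, adjusted p = 0.0781; 0.31, adjusted p = 0.18), but they did with a block for each number within each region (0.40, adjusted p = 0.0145; 0.32, adjusted p = 0.0362). Sv2b was at 88.4, 39.2 and 96.7 CPM in the hypothalamus IPs and 107, 35.5 and 60.3 CPM in the inputs. Midbrain Sv2b was at 176, 112 and 179 CPM in the IPs and 157, 77.3 and 104 CPM in the inputs. Its groups overlapped (0.14 ± 0.42, adjusted p = 0.825 and 0.46 ± 0.42, adjusted p = 0.427), and the midbrain value passed with the block (0.50, adjusted p = 0.0477). Sv2c, the form of the basal ganglia and brainstem, was at 28.3, 7.58 and 7.83 CPM in the hypothalamus IPs and 83.8, 25.8 and 26.7 CPM in the inputs. Midbrain Sv2c was at 37.00, 27.9 and 12.4 CPM in the IPs and 69.3, 42.4 and 39.5 CPM in the inputs. Each IP was below the input of its own number, with -1.64 ± 0.60, adjusted p = 0.0533 and -0.97 ± 0.59, adjusted p = 0.234, and both values passed with the block (-1.68, adjusted p = 3.20e-04; -1.03, adjusted p = 0.0078).

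Levels can be set side by side between genes only per length, here as mean CPM per kilobase of annotated exon (GENCODE, all isoforms joined; SD, n = 3). In the hypothalamus IPs Snap25 came first with 2184 ± 514 and Vamp2 next with 921 ± 53.9. Syn1 had 268 ± 14.2 and Cplx1 131 ± 10.9, each apart from the other by more than their spread. In the midbrain IPs the levels were led by Snap25 at 2900 ± 579, Vamp2 at 911 ± 102 and Cplx1 at 416 ± 41.8, ahead of Syn1 at 265 ± 20.7.

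Between the regions 5 of 64 members differed in the IPs and 3 in the inputs, where 4.26% and 1.61% of all genes did. Of the 64 members, 1 was higher and 4 were lower in the hypothalamus IPs than in the midbrain IPs, where 2.05% and 2.21% of all genes were. Between the inputs 1 was higher and 2 were lower, where 1.00% and 0.601% of all genes were. All hypothalamus IPs lay above all midbrain IPs for 4 members and below them for 8, where 10% and 8.52% of all genes did, and the inputs did for 9 and 12, where 11.9% and 10.2% did. Each region of a replicate number ran on another lane, so within a number region and lane cannot be told apart. Of 8 oligodendrocyte markers, 4 were lower in the hypothalamus IPs than in the midbrain IPs and 2 were lower between the inputs, with summed levels of 73.7 to 114 CPM against 179 to 295 CPM and of 1827 to 2335 CPM against 3510 to 4530 CPM. Over all 36 glial, vascular and ependymal markers, 8 were lower and none higher between the IPs, and 2 were lower and none higher between the inputs. Of the 6 GABAergic markers, 2 were higher in the hypothalamus in each fraction and none was lower, with summed levels of 197 to 356 CPM against 136 to 259 CPM in the IPs and of 1693 to 2259 CPM against 1236 to 1799.5 CPM in the inputs. The part of these cells in the regional results was not tested.

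Cplx1 had the smallest adjusted p of the members in both of these comparisons. The values given above put all hypothalamus libraries, between 266 and 392 CPM, under all midbrain libraries, between 751 and 978 CPM. Its log2 fold change was -1.66 ± 0.14, adjusted p = 8.80e-05 between the IPs and -1.34 ± 0.14, adjusted p = 7.10e-04 between the inputs. Vamp1 was lower in the hypothalamus too, with -1.11 ± 0.22, adjusted p = 0.0136 between the IPs and -1.67 ± 0.22, adjusted p = 0.0029 between the inputs, again with no overlap. Cplx2 passed between the IPs (-1.49 ± 0.18, adjusted p = 6.70e-04), and its inputs, which do not overlap either, had -0.46 ± 0.17, adjusted p = 0.291.

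Unc13b, a priming factor, was at 22.2, 17.3 and 16.8 CPM in the hypothalamus IPs and 26.8, 42.7 and 36.4 CPM in the midbrain IPs. Its inputs were at 22.7, 31.7 and 25.4 CPM and 36.01, 31.9 and 35.1 CPM. The IPs were apart (-0.91 ± 0.20, adjusted p = 0.0282), a call lost without hypothalamus IP 2 or 3 or midbrain IP 2 or 3 (adjusted p 0.0665 to 0.108), and the inputs had -0.37 ± 0.20, adjusted p = 0.567. Stxbp5 was the 1 member higher in the hypothalamus IPs (0.81 ± 0.14, adjusted p = 0.00637), with 0.32 ± 0.14, adjusted p = 0.381 between the inputs. Syt10 was the 1 member higher in the hypothalamus inputs (1.83 ± 0.39, adjusted p = 0.039), a call lost without any 1 input other than midbrain input 1 (adjusted p 0.0624 to 0.176), and the IPs had -0.47 ± 0.38, adjusted p = 0.57.

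**Figure D3:**
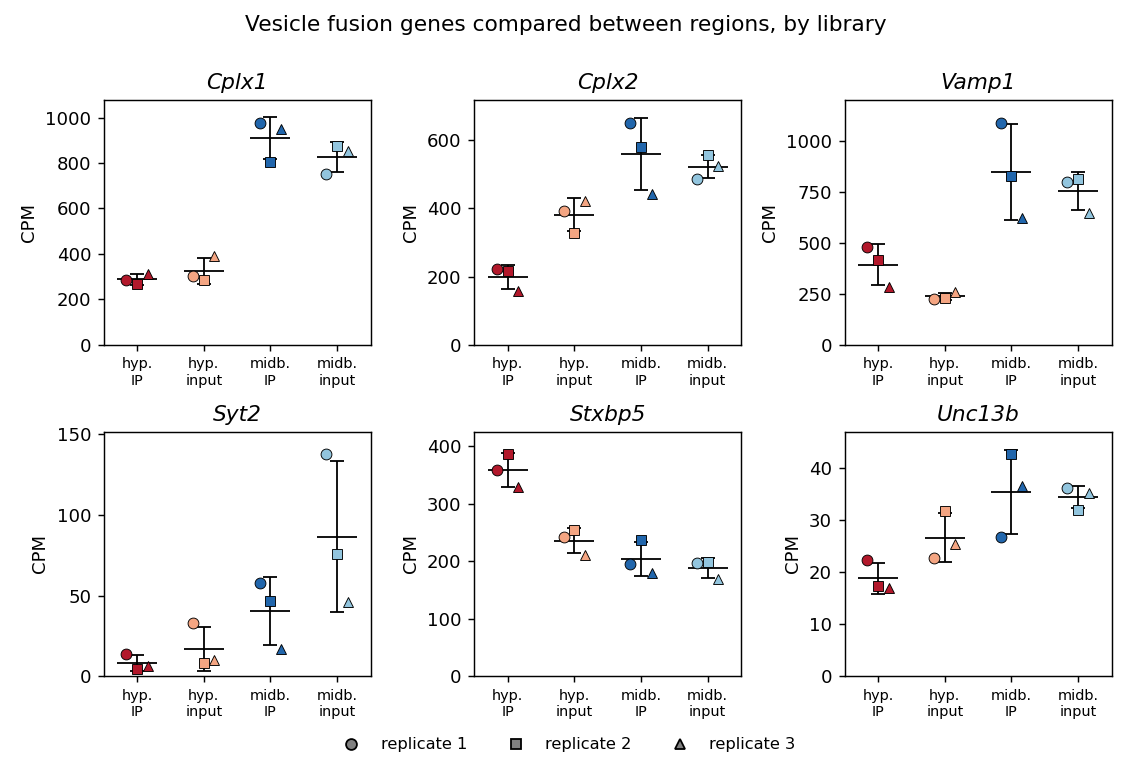
CPM (y axis, from 0) in each library of the 4 groups for 6 members compared between regions; symbols mark the replicate, bars the mean and SD of 3. Cplx1, Cplx2, Vamp1, Syt2 and Unc13b have all hypothalamus IPs below all midbrain IPs, and Stxbp5 has them above.

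With the replicate number as a block, 1 member was higher and 11 were lower between the IPs, where 4.41% and 6.75% of all genes passed, and 5 were higher and 8 lower between the inputs, where 2.87% and 3.18% passed. Syt2 was among those added: its IPs read 13.8, 4.13 and 6.16 CPM in the hypothalamus and 57.5, 46.8 and 16.7 CPM in the midbrain, apart in spite of wide spreads. Syt2 had -2.33 ± 0.66, adjusted p = 0.0701 between the IPs and -2.36 ± 0.65, adjusted p = 0.12 between the inputs without the block, and -2.36, adjusted p = 5.41e-04 and -2.46, adjusted p = 5.45e-04 with it. Syt7, Snap25 and Sv2b were also lower in the hypothalamus under the block, between the IPs (-0.87, adjusted p = 0.00288; -0.42, adjusted p = 0.00867; -1.12, adjusted p = 0.00207) and between the inputs (-1.10, adjusted p = 9.85e-04; -0.81, adjusted p = 1.43e-04; -0.81, adjusted p = 0.0232). Syt3, Syt6 and Sv2c were added between the IPs only. Between the inputs only, Stx1a, Syt5, Syt16 and Vamp4 were added as higher and Stxbp6 and Unc13c as lower in the hypothalamus.

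Whether IP against input itself differed between the regions was tested with an interaction. By edgeR's quasi-likelihood test 0 of the 64 members passed, where 0.0772% of all genes passed (0.0607% higher and 0.0165% lower), and the count stayed at 0 with the block, where 0.579% passed (0.320% and 0.259%). At an unadjusted p under 0.05 there were 9 of 64 members, beside 1190 of 18128 genes. The smallest of these belonged to Cplx2 (difference -1.04 ± 0.24, adjusted p = 0.221) and Syt10 (-2.30 ± 0.54, adjusted p = 0.227). DESeq2 called 2 members, the same Cplx2 (-1.02, adjusted p = 0.0219) and Syt10 (-2.29, adjusted p = 0.00808), and it called 1.17% of all genes. So a call in 1 region alone, as for Vamp1, Stxbp5, Stxbp6 or Syt16, is not shown to differ from the other region.

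The replicate number went with the level of many of these genes. Replicate 1 was the highest library in all 4 groups for 11 of 64 members (17.2%), against 11.7% of all genes tested. These were Rims3, Stx12, Sv2a, Sv2c and 7 synaptotagmins (Syt1, Syt2, Syt3, Syt4, Syt5, Syt11 and Syt13). Sv2a and Syt4 exceeded the next library by over 1.5 times in every group. Syt4, a synaptotagmin that does not trigger release, was at 506, 161 and 253 CPM in the hypothalamus IPs and 411, 159 and 181 CPM in the inputs. Midbrain Syt4 was at 423, 282 and 265 CPM in the IPs and 284, 176 and 183 CPM in the inputs. Its IPs overlapped the inputs in both regions, and replicate 1 was high in both fractions.

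Replicate 1 was the lowest in all 4 groups for 9 members (14.1%, against 7.66% of all genes), among them Rims1, Snap25, Stx4a, Stx5a, Stx8, Stxbp6, Syt16 and Vamp4. The IPs numbered 1 also held more of the ribosomal RNA precursor Rn45s, 12.3% and 12.5% of their counts, against 5.21% to 6.85% in the other IPs and 2.57% to 3.97% in the inputs. The inputs numbered 1 did not stand apart in Rn45s. They did hold more reads left ambiguous between genes, 16126812 and 16516586 against 3985265 to 9205718 in the other inputs. All IPs held fewer such reads, 1737853 to 1986434. The part of Rn45s and of ambiguous reads in the pattern was not tested. Within same-numbered pairs, 28 members were higher in the IP in 3 of 3 hypothalamus pairs and 22 lower in 3 of 3 of the 64, where 29.4% and 37.0% of all genes did so. In the midbrain 31 were higher and 18 lower, where 31.0% and 35.5% of all genes did so.

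**Figure D4:**
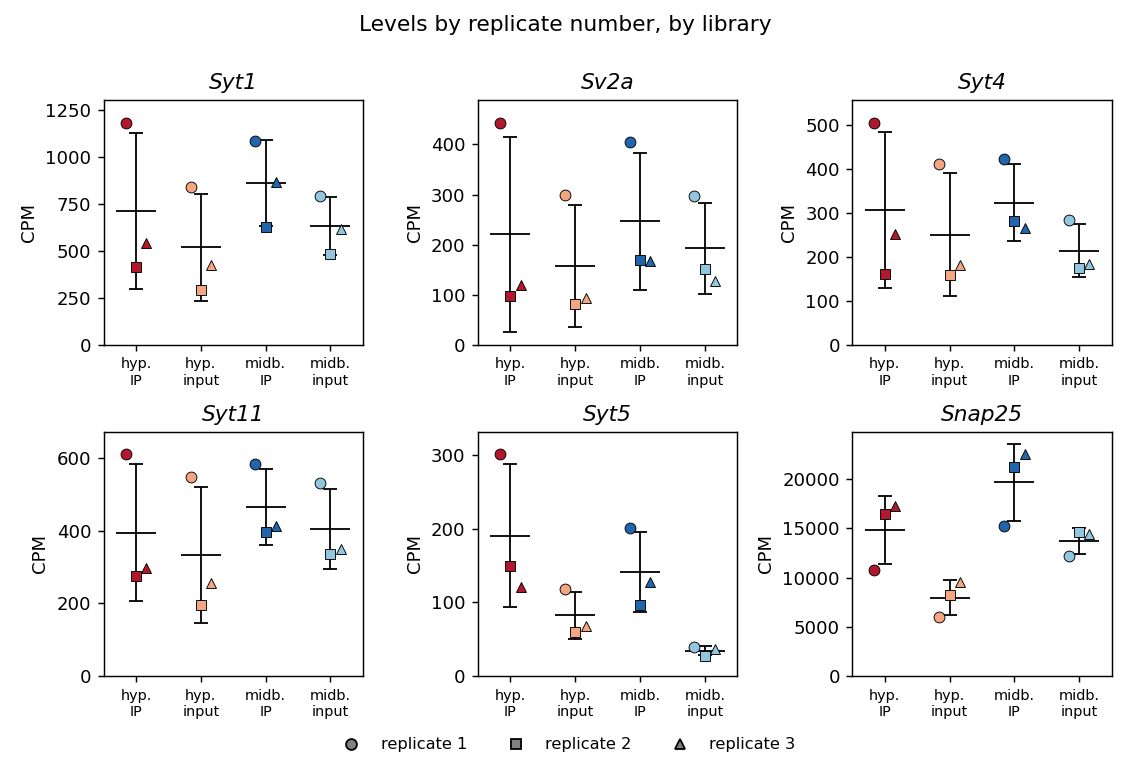
CPM (y axis, from 0) in each library of the 4 groups for 5 members with replicate 1 (circles) highest in every group and for Snap25 with replicate 1 lowest; bars mark the mean and SD of 3. The circle sits at the top of each group for Syt1, Sv2a, Syt4, Syt11 and Syt5 and at the bottom for Snap25.

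Neighbouring steps of the vesicle cycle were read from 50 other presynaptic genes, chosen by function, all of which were tested. Of these 17 were higher and 6 lower in the hypothalamus IPs, with a median log2 fold change of 0.35, where 14.2% and 19.6% of all genes tested were called. In the midbrain IPs 19 were higher and 5 lower, with a median of 0.32, where 14.0% and 19.9% were called. The counts in the smaller groups below stand against the same shares. Of the 8 genes that take SNARE complexes apart or chaperone them, 7 were higher in the hypothalamus and 6 in the midbrain. Nsf, the ATPase that unwinds used SNARE complexes, was higher by 0.40 ± 0.10, adjusted p = 0.00785 and 0.40 ± 0.10, adjusted p = 0.00719. Napa, its adaptor alpha-SNAP, was higher by 0.92 ± 0.18, adjusted p = 0.00261 and 0.79 ± 0.18, adjusted p = 0.00623. Sncb, or beta-synuclein, was higher by 1.65 ± 0.18, adjusted p = 4.75e-05 and 1.44 ± 0.18, adjusted p = 1.14e-04. Sncg passed in neither region, and Napg passed in the hypothalamus only.

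In the Rab cycle, which brings vesicles to the active zone, 3 of 9 genes were higher in the hypothalamus and 4 of 9 in the midbrain, and none was lower. Rab3a was higher by 1.13 ± 0.16, adjusted p = 3.14e-04 and 1.02 ± 0.16, adjusted p = 6.12e-04. Rab3b was higher in both IPs and also differed between regions, at 1.92 ± 0.22, adjusted p = 5.83e-04 between the IPs and 2.06 ± 0.22, adjusted p = 7.10e-04 between the inputs, upward in the hypothalamus. Scaffolds of the active zone went both ways. Pclo, the giant scaffold piccolo, was lower, with -2.004 ± 0.14, adjusted p = 2.60e-06 and -1.91 ± 0.14, adjusted p = 3.72e-06, and Bsn, its partner bassoon, was lower in the hypothalamus, with -0.84 ± 0.22, adjusted p = 0.0114. The liprins Ppfia3 and Ppfia4 were higher in both regions. Of the vesicle membrane proteins, Syp, the classical vesicle marker synaptophysin, had 0.77 ± 0.48, adjusted p = 0.243 and 0.63 ± 0.48, adjusted p = 0.344, and did not pass.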

How the data were processed

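The data were 12 deposited tables of read counts per gene symbol, 1 for each library, made by the authors with STAR 2.0.0e and HTSeq on mm10, per the submitters' processing notes. The annotation, the counting mode and the strand setting are not given in the sources used here, so reads in overlapping genes cannot be assigned with certainty. The 6 HTSeq summary rows were left out. None of the 66 pairs of libraries held identical values. Library totals of 41909019 to 55148109 counts set the precision, and the floor of 3 counts covers counting error only.

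Counts of 32531 genes were filtered with filterByExpr (18128 kept), scaled with TMM and fitted in edgeR 4.0.16 (R 4.3.3; robust quasi-likelihood F test) with 1 mean for each of the 4 groups. The 5 comparisons were IP against input in each region, the difference between these, and the regions within each fraction. P-values were Benjamini-Hochberg adjusted over all genes tested, with a threshold of 0.05, and the SE of a log2 fold change is its size divided by the square root of F. Gene positions come from GENCODE vM21 (GRCm38), which held 67 of the 68 symbols.

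Replicate numbers, which come from the library labels, were checked for pairing. Deviations from the group means correlated in 18 of 18 same-numbered pairs (r from 0.270 to 0.778), and each sample correlated best with its own number, so the numbers were taken to pair the samples. The fit with the number as a block is given where it changes a call.

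The members and gene lists were chosen with earlier results of these data known. Values in every library are given for genes of fast release, for up to 10 members with the largest change in each direction among those past the threshold with at least 5 CPM and no overlap, and for members past the threshold in the other comparisons. Syt4 and Vamp5, shown beyond that rule, were chosen after their values were seen. Results of a few genes are not reported here. Alternatives were other scalings, no filter, DESeq2 1.42.0, limma 3.58.1 (voom), the block, and leaving out libraries.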

Additional observations from a re-analysis of the deposited data

How the results depend on the processing

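In the hypothalamus 35 members were called with the block by number and 35 with the block by region and number, against 22 without, where 43.4%, 40.5% and 33.8% of all genes were called. In the midbrain 39 were called with either block, against 24 (43.9%, 40.9% and 33.9% of all genes). Between the IPs the block by number gave 12 against 5, and between the inputs 13 against 3. The shares of all genes were 11.2% against 4.26% and 6.05% against 1.61%. The block by number changed no other call among the named genes than those given beside them, the block by region and number added Sv2a in both regions to these, and neither lost a call. DESeq2 called 2 members in the regional difference against 0, and 9 between the inputs against 3, where it called 1.17% and 4.20% of all genes. Leaving out the 4 libraries numbered 1 together, an alternative chosen after seeing the data, gave 10 between the IPs and 6 between the inputs, where 4.55% and 1.56% of all genes were called. Over all settings that leave out libraries the counts ran from 18 to 24 in the hypothalamus, 16 to 25 in the midbrain, 0 to 0 in the regional difference, 4 to 10 between the IPs and 2 to 6 between the inputs. The shares of all genes called ran, in that order, from 25% to 32.1%, 25.8% to 30%, 0.0427% to 0.176%, 1.99% to 4.55% and 0.498% to 1.56%.

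Of 42 calls of named genes, 29 stood without each single library and 34 without the libraries numbered 1. Directions that turned belonged to values that did not pass without a block. In the hypothalamus these were Syt1 (-0.12) and Sv2a (-0.54) without hypothalamus IP replicate 1 (up to 0.99 and 1.34 without hypothalamus input replicate 1), Rims1 (-0.0094 with library size alone, -0.22 without hypothalamus IP replicate 3, up to 0.33), Syn2 (-0.018 without hypothalamus IP replicate 3, up to 0.51) and Sv2b (-0.0012 with library size alone, -0.17 without hypothalamus input replicate 2, -0.084 without hypothalamus IP replicate 3, up to 0.64). In the midbrain they were Vamp1 (-0.0521 without midbrain IP replicate 1, -0.0074 without number 1 in all groups, up to 0.35), Cplx2 (-0.028 and -0.077 in the same settings, up to 0.24) and Sv2a (-0.20 without midbrain IP replicate 1, up to 0.82). The cause was not tested. Under TMM 2576 genes were called higher and 3547 lower in the hypothalamus and 2544 and 3604 in the midbrain; with library size alone it was 1632 and 4011, and 1960 and 3754.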

Other observations

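Several relatives fall outside the symbol rule. Stxbp3a, or Munc18-3, which serves exocytosis in non-neuronal cells, had mean levels of 1.85 CPM in the hypothalamus IPs, 18.7 CPM in those inputs, 3.42 CPM in the midbrain IPs and 27.3 CPM in those inputs. It was lower in the IPs, with log2 fold changes of -3.34 (adjusted p = 4.03e-05, edgeR) and -2.998 (adjusted p = 7.26e-05). Sytl2 and Sytl5, synaptotagmin-like proteins that bind Rab27, were lower in both regions, at -0.54 (adjusted p = 0.00965) and -0.51 (adjusted p = 0.0132) for Sytl2 and -1.20 (adjusted p = 0.0164) and -1.63 (adjusted p = 0.00361) for Sytl5. Sytl4 was lower in the hypothalamus (-2.57, adjusted p = 0.00797) and had -1.11 (adjusted p = 0.227) in the midbrain. Not all genes outside the rule were lower. Snapin passed in neither region, with 0.06 (adjusted p = 0.796) in the hypothalamus and -0.06 (adjusted p = 0.771) in the midbrain.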
